A study of Mus musculus with 9 samples.

Results

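The data described here are the signals of 9 leukocyte marker genes, Ptprc, Itgam, Emr1, Csf1r, Cd68, Cd14, Cd3e, Cd79a and Ms4a1, in mouse muscle cells sorted for microarray analysis. They were found as the non-control spots whose gene name on the array equals a marker's name, with every probe kept, which gave 18 probes on 27 of 43379 spots, for 9 of 27597 gene names. Each of 3 groups had 3 single-colour Agilent arrays. The iPax3 and iPax7 groups were mononucleated cells re-isolated from tibialis anterior of hosts of the strain NSG/NSGmdx4cv, 3 months old, after injection of iPax3 or iPax7 cells. These lines derive from mouse pluripotent cells in which Pax3 or Pax7, transcription factors of muscle progenitors, can be induced. The labels do not say which host strain of the pair gave which array, and they give no gate for the sort. The third group was satellite cells, the resident stem cells of muscle, from the same muscle of Pax7-ZsGreen mice of that age, a strain with a green reporter of Pax7 and no stated immune defect. Per the labels, 1500 cells taken from 3 mice per line in 3 experiments were lysed and their RNA was amplified. Which experiment gave which array is not stated, so p-values measure the spread between these arrays.

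The markers cover the main white blood cell lineages. Ptprc encodes CD45, a phosphatase on the surface of nearly all leukocytes. Itgam (CD11b) is an integrin of monocytes, macrophages and neutrophils, and Emr1, now named Adgre1, encodes the macrophage antigen F4/80. Csf1r is the receptor through which macrophages receive survival signals, Cd68 is a lysosomal protein of macrophages, and Cd14 presents bacterial lipopolysaccharide to Toll-like receptors. Cd3e is a signalling chain of the T cell receptor, Cd79a of the B cell receptor, and Ms4a1 encodes the B cell surface protein CD20. NSG mice lack mature T, B and natural killer cells but keep monocytes, macrophages and neutrophils, and skeletal muscle holds resident macrophages.

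Since probes of 1 marker did not follow each other across the arrays, the sequences of 5 marker probes that read as coding sequence are given, in lower case and in the sense direction. Each is 60 bases long and has at least 1 reading frame without a stop codon. Positions are those the array files list, whose genome build is not given in the sources used here.
Ptprc probe A_52_P239834, chr1:139882525-139882584, minus strand: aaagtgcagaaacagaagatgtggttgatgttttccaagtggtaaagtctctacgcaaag
Ptprc probe A_52_P11901, chr1:139930119-139930178, minus strand: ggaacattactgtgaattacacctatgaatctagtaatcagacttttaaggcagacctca
Cd68 probe A_51_P120470, chr11:69481007-69481066, minus strand: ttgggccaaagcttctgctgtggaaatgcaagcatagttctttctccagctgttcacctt
Emr1 probe A_52_P364727, chr17:57096133-57096192, plus strand: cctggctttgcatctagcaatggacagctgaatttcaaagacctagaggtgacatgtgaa
Cd79a probe A_52_P651316, chr7:24608094-24608351, plus strand: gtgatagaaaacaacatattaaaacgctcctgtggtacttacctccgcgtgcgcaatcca
The listed range of the Cd79a probe spans 258 bases, more than the probe's 60, and so includes bases that are not in the probe. The first Ptprc probe begins at base 3204 of the transcript the array lists and the other at base 303.

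Levels below are log2 signals minus the 75th percentile of the same array, so a level of 0 is a signal equal to that percentile, and differences are log2 differences with the standard error of a limma fit over all 9 arrays. A probe was above background where the scanner software's own flag said so. Levels of different probes are not compared with each other, since probes differ in brightness. Across arrays of 1 group the levels of all genes correlated at r between 0.62 and 0.744. The re-isolated arrays shared 2 slides and 1 scan day, and each satellite array had a slide of its own. Satellite replicate 1 was scanned on another day, and satellite replicates 2 and 3 shared yet another. Strain, slide and scan day therefore cannot be told apart in a comparison with satellite cells. Of 22705 genes tested, 98 passed a Benjamini-Hochberg adjusted p of 0.05 in iPax3 against satellite cells, 121 in iPax7 against satellite cells, 236 for both lines together and 0 in iPax7 against iPax3, where 931 had an unadjusted p under 0.05. Of the called genes, 83.7%, 81.8% and 77.1% were higher in the re-isolated cells, and with the background corrected by normexp instead 67.9%, 72.8% and 62.5%. The median difference of all genes was -0.19, -0.15, -0.16 and 0.07 in these 4 comparisons.

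Signals of 8 of the 9 markers were above background on at least 1 array of every group, Cd79a being below it on all 3 iPax7 arrays, and 0 of the 9 passed the test in any comparison. On every array 8 or 9 of the 9 genes were above background by at least 1 probe, and 11 to 15 of the 18 probes were. Over the whole array 64.4% to 82.1% of gene names and 56.6% to 79.7% of probes were above background, so the probe counts are near that share. The count was 0 of 9 in each of the 4 comparisons, against a background of 0.432% of genes called in iPax3 against satellite cells, 0.533% in iPax7 against satellite cells, 1.04% for both lines together and 0% in iPax7 against iPax3. At these rates a list of 9 genes with no call is near the background. At an unadjusted p under 0.05, 0, 2, 0 and 2 of the 9 genes passed, where 12.4%, 12.4%, 15.4% and 4.1% of all genes did, and the genes were Ptprc and Cd79a both times. The median difference of the 9 genes was 0.06 in iPax3 and 0.14 in iPax7 against satellite cells, 0.06 for both lines together and 0.10 in iPax7 against iPax3. The number of arrays limits the precision. The replicate SD of the 9 genes had a median of 1.2 in iPax3, 1.74 in iPax7 and 1.22 in satellite cells and reached 3.8. In bulk samples a smaller number of leukocytes and less RNA per leukocyte cannot be told apart.

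**Figure D1:**
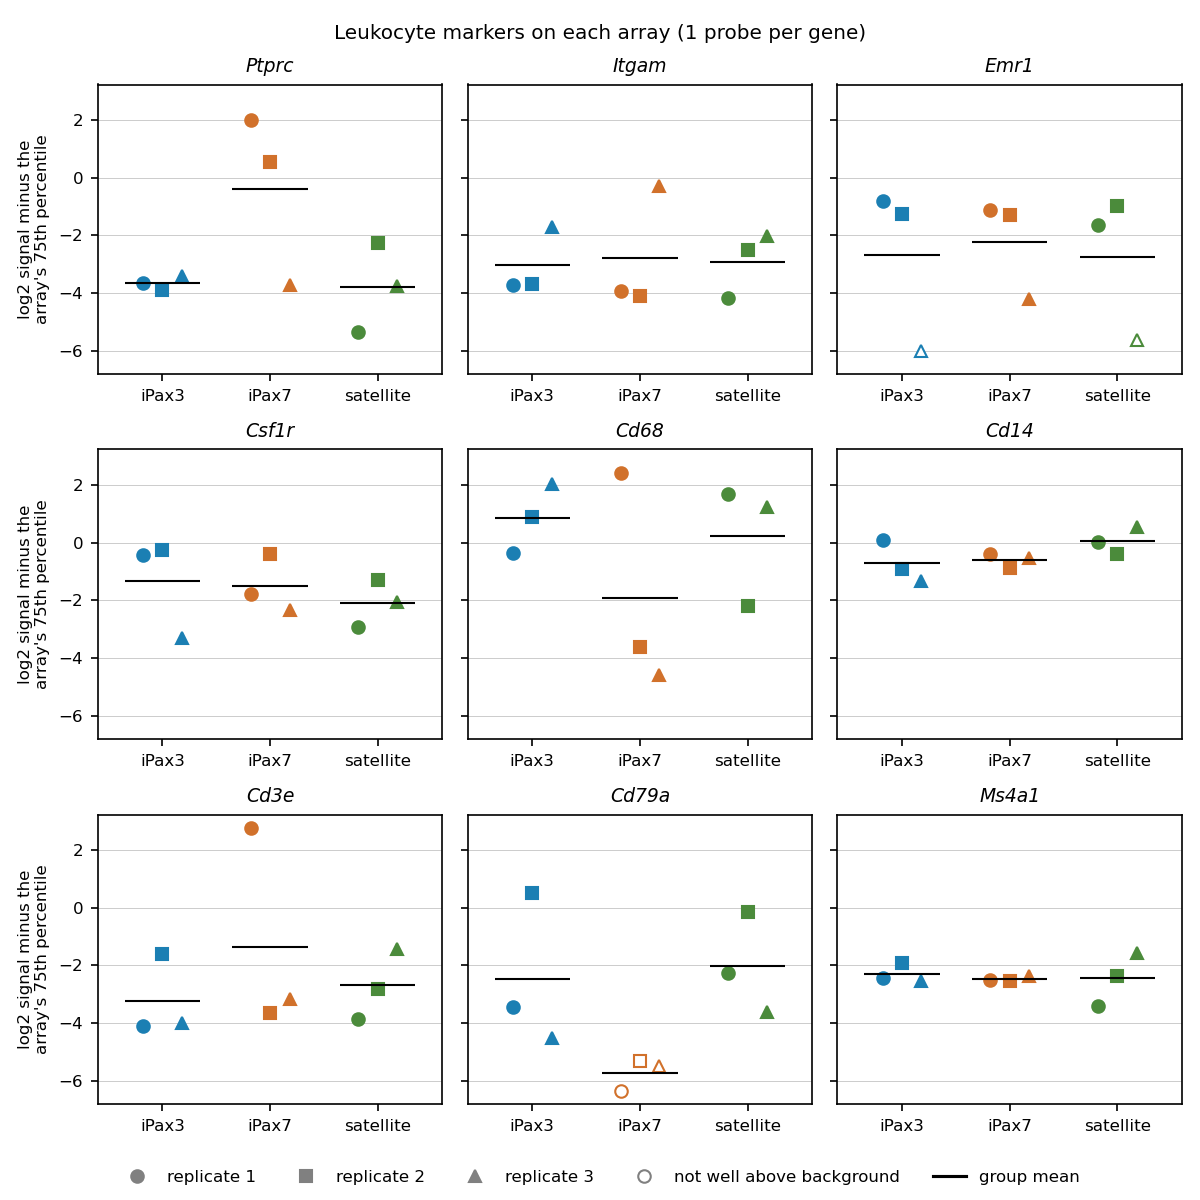
Level of each leukocyte marker (log2 signal minus the array's 75th percentile, y axis) on the 9 arrays, by group (x axis), for the probe that stands for the gene. Symbols mark the replicate, open symbols a signal that was not well above background, and lines the group means. The groups overlap for 7 of the 9 genes in every comparison; the 3 iPax7 arrays were below background for Cd79a, and 1 iPax7 array stood highest for Ptprc, Cd68 and Cd3e.

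Ptprc, the general leukocyte marker, had the largest positive difference of the 9 genes in iPax7 cells, and it rested on 2 of 3 iPax7 arrays. The probe A_52_P239834, whose sequence is given above and which stands for the gene, read -3.66, -3.9 and -3.42 in iPax3 replicates 1 to 3. It read 2.01, 0.55 and -3.73 in iPax7 replicates 1 to 3 and -5.36, -2.26 and -3.76 in satellite replicates 1 to 3, and it was above background on all 9 arrays. So iPax7 replicates 1 and 2 stood above the other 7 arrays, and iPax7 replicate 3 lay among them. The difference of iPax7 from satellite cells was 3.4 ± 1.41 (95% interval 0.23 to 6.57, limma adjusted p = 0.38), and that from iPax3 cells was 3.27 ± 1.41 (adjusted p = 1). In iPax3 against satellite cells it was 0.13 ± 1.41 (interval -3.04 to 3.30, adjusted p = 0.976). Without iPax7 replicate 1 the difference from satellite cells was 2.20 and without iPax7 replicate 3 it was 5.07, and no array left out gave an adjusted p under 0.145. The group means were -3.66 in iPax3, -0.39 in iPax7 and -3.79 in satellite cells. In that order iPax7 stood first and the other two groups did not differ beyond their spread.

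The other 3 Ptprc probes named different arrays as high. The probe A_52_P677117, printed on 10 spots, read -1.30 on iPax7 replicate 1 and -0.12 on iPax7 replicate 3, where all 10 spots were above background. On iPax7 replicate 2, the second highest array by the first probe, it read -6.61 with 0 of 9 usable spots above background. It was at -7.35, -7.19 and -7.51 on the iPax3 arrays and at -6.06, -6.24 and -6.77 on the satellite arrays. Of those 6 arrays satellite replicate 1 alone was above background, on 9 of its 10 spots. The spots of 1 array lay close together, with an SD between 0.05 and 0.32. The iPax7 arrays lay above the iPax3 arrays without overlap (difference 4.67 ± 1.47, adjusted p = 0.947 over 32967 probes, mean at least 5.8-fold higher against the background bound). For iPax7 replicate 2 that gap is between readings below background on both sides, so it does not show a higher signal there. In this comparison 9.35% of all genes did not overlap. Against satellite cells the difference was 3.68 ± 1.47 (adjusted p = 0.386). The probe A_52_P11901 was above background on iPax3 replicate 3 and iPax7 replicate 3 alone, and A_52_P341128 on iPax3 replicates 1 and 3 alone. Neither passed the filter of 3 arrays above background, and neither was tested.

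**Figure D2:**
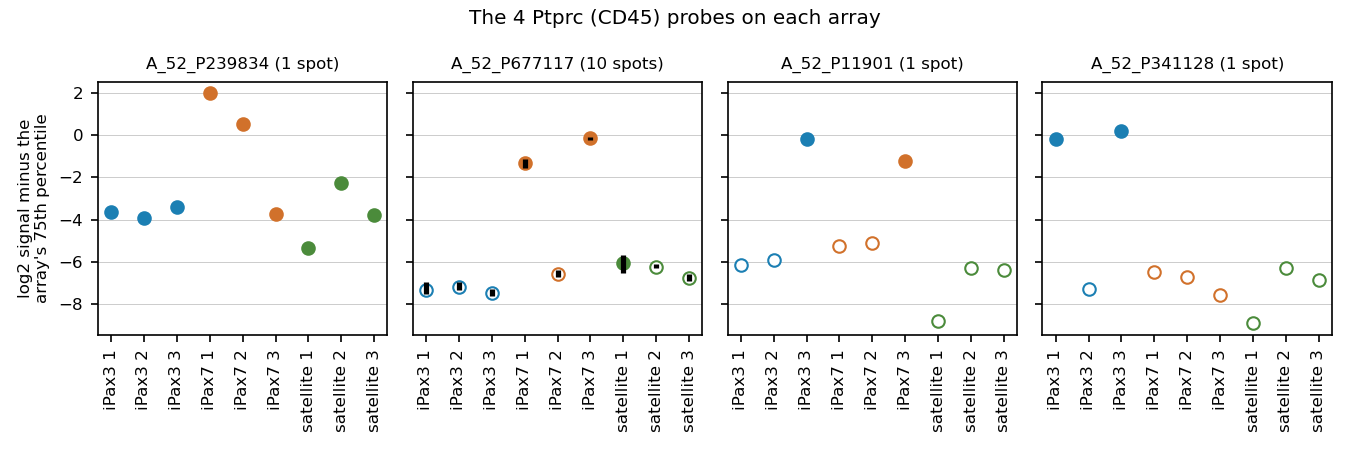
Level of each of the 4 Ptprc probes (log2 signal minus the array's 75th percentile, y axis) on the 9 arrays (x axis), coloured by group, filled where above background. Black bars give the range over the spots of the probe with 10 spots. The arrays with a high signal differ between probes: iPax7 replicates 1 and 2 by the first, iPax7 replicates 1 and 3 by the second, iPax3 replicate 3 and iPax7 replicate 3 by the third, and iPax3 replicates 1 and 3 by the last.

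Once each probe was centred on its own mean, the root mean square difference between 2 probes of a marker over the 9 arrays could be set against that of all genes with several probes. Its median was 2.48 over the 12 pairs of the 5 markers with several probes above background on at least 1 array, and 2.31 over 18405 pairs of 8352 genes. The 6 Ptprc pairs lay between 2.77 and 4.74, and the 3 Csf1r pairs between 1.22 and 1.88. The pair of Ms4a1 probes was at 1.38, that of Emr1 at 2.15 and that of Itgam at 2.2. These values describe how far probes of a gene differed, and the cause was not tested.

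Itgam, the integrin chain of myeloid cells, was alike in the 3 groups. Its probe A_51_P103007 read -3.71, -3.7 and -1.72 in iPax3 replicates 1 to 3. It read -3.93, -4.1 and -0.29 in iPax7 and -4.19, -2.52 and -2.03 in satellite replicates 1 to 3. One array of each re-isolated line, replicate 3 both times, was above the others of its line, and the 3 groups overlapped. The difference was -0.13 ± 1.17 for iPax3 and 0.14 ± 1.17 for iPax7 against satellite cells (adjusted p = 0.97 and 0.974). For both lines together it was 0.00 ± 1.02 with an interval from -2.29 to 2.30, which leaves room for changes in either direction. The other Itgam probe was above background on iPax3 replicate 1 and iPax7 replicate 2 alone.

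The macrophage antigen gene Emr1 split the arrays within each group rather than between groups. Its probe A_51_P251768 read -0.80, -1.24 and -6.03 in iPax3, -1.13, -1.29 and -4.22 in iPax7 and -1.64, -0.99 and -5.63 in satellite replicates 1 to 3. Replicate 3 was the lowest array in all 3 groups, and in iPax3 and satellite cells it was not above background. The differences were 0.06 ± 1.70 for iPax3 and 0.54 ± 1.70 for iPax7 against satellite cells (adjusted p = 0.99 and 0.925). The other Emr1 probe, whose sequence is given above, was above background on iPax3 replicate 1 and iPax7 replicate 2 alone.

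Csf1r, the growth factor receptor of macrophages, had 3 probes, all of which passed the filter. The probe that stands for it, A_52_P570471, read -0.41, -0.25 and -3.30 in iPax3, -1.78, -0.37 and -2.35 in iPax7 and -2.93, -1.27 and -2.04 in satellite replicates 1 to 3. The groups overlapped, and the differences from satellite cells were 0.76 ± 1.01 in iPax3 and 0.58 ± 1.01 in iPax7 (adjusted p = 0.769 and 0.848). By the probe A_52_P602091, above background on all 9 arrays too, the same differences were -0.65 ± 1.05 and -0.32 ± 1.05. By A_51_P365885, above background on 8 arrays, they were -0.57 ± 1.43 and 0.11 ± 1.43. The sign of the Csf1r difference thus depended on the probe, and no probe passed the test.

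Cd68, the lysosomal macrophage gene, varied most in iPax7 cells. It read -0.34, 0.92 and 2.05 in iPax3, 2.42, -3.61 and -4.60 in iPax7 and 1.71, -2.20 and 1.26 in satellite replicates 1 to 3, always above background. Replicate 1 of iPax7 was the highest of the 9 arrays and the other iPax7 arrays were the lowest. The difference of iPax7 from satellite cells was -2.19 ± 1.82 (interval -6.28 to 1.91, adjusted p = 0.659), and that of iPax3 was 0.62 ± 1.82 (adjusted p = 0.906). Without iPax7 replicate 1 the first became -4.36, with an adjusted p still at 0.302.

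Cd14, the lipopolysaccharide receptor chain, was the steadiest of the myeloid markers. It read 0.12, -0.90 and -1.33 in iPax3, -0.39, -0.88 and -0.53 in iPax7 and 0.03, -0.38 and 0.56 in satellite replicates 1 to 3. The satellite arrays lay above all iPax7 arrays, by a narrow gap, and overlapped the iPax3 arrays. The difference from satellite cells was -0.77 ± 0.67 in iPax3 and -0.67 ± 0.67 in iPax7 (intervals -2.29 to 0.75 and -2.19 to 0.85, adjusted p = 0.64 and 0.72). It was negative in every alternative run for these comparisons, and it never passed the test.

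Probes for lymphocyte genes also gave signals above background in cells from hosts that lack mature lymphocytes. Cd3e, by the probe A_51_P455681, read -4.11, -1.61 and -4.01 in iPax3, 2.79, -3.65 and -3.17 in iPax7 and -3.85, -2.80 and -1.41 in satellite replicates 1 to 3. It was above background on all 9 arrays, with iPax7 replicate 1 above the other 8 arrays. The difference of iPax7 from satellite cells was 1.34 ± 1.65 (adjusted p = 0.772), and it turned to -0.72 without iPax7 replicate 1. The other Cd3e probe, A_52_P86404, was above background on 0 of 9 arrays, that array included.

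Cd79a, the signalling chain of the B cell receptor, was the 1 marker that fell below background in a whole group. Its probe, whose sequence is given above, read -3.45, 0.52 and -4.51 in iPax3 and -2.28, -0.14 and -3.61 in satellite replicates 1 to 3, all above background. In iPax7 replicates 1 to 3 it read -6.37, -5.33 and -5.48, and none was above background. The iPax7 arrays lay below the other 6 without overlap, which held for 2 of the 9 markers, Cd14 and Cd79a, against satellite cells (16.5% of all genes) and for Cd79a alone against iPax3 cells (9.35% of all genes). In the other comparisons the groups overlapped for all 9 markers, where 19% of genes in iPax3 against satellite cells and 8.5% for both lines together did not overlap. Set against the lowest signal above background, the mean of Cd79a in iPax7 was at least 6.24-fold below that of satellite cells. Against iPax3 cells it was at least 4.49-fold lower. These folds carry no sampling error, unlike the intervals of the fit. The fitted differences were -3.72 ± 1.36 (interval -6.78 to -0.66, adjusted p = 0.323) and -3.25 ± 1.36 (adjusted p = 1), so neither passed. The single Cd79a probe has no second probe to compare with.

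Ms4a1, the gene of CD20, was the least variable of the 9 genes by the probe that stands for it and differed between its probes. The probe A_51_P277683 read -2.42, -1.92 and -2.53 in iPax3, -2.50, -2.53 and -2.38 in iPax7 and -3.40, -2.37 and -1.56 in satellite replicates 1 to 3. Its differences from satellite cells were 0.15 ± 0.69 in iPax3 and -0.03 ± 0.69 in iPax7 (adjusted p = 0.941 and 0.993). The probe A_52_P483336 was above background on all 6 re-isolated arrays, at -3.45, -4.10 and -2.68 in iPax3 and -3.23, -4.33 and -3.48 in iPax7. On the satellite arrays it read -7.93, -6.23 and -4.22 and was above background on replicate 3 alone. By that probe the re-isolated cells were higher by 2.58 ± 0.87 (interval 0.61 to 4.55, adjusted p = 0.24), which did not pass. It had the lowest adjusted p of the 13 marker probes tested in that comparison. Of these 13 probes 0 were called in any comparison, where 0.385%, 0.434%, 0.758% and 0% of 32967 probes were, in the order given above, and 1, 4, 1 and 3 of them had an unadjusted p under 0.05, where 12%, 11.7%, 14.3% and 4.28% of all probes did.

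**Figure D3:**
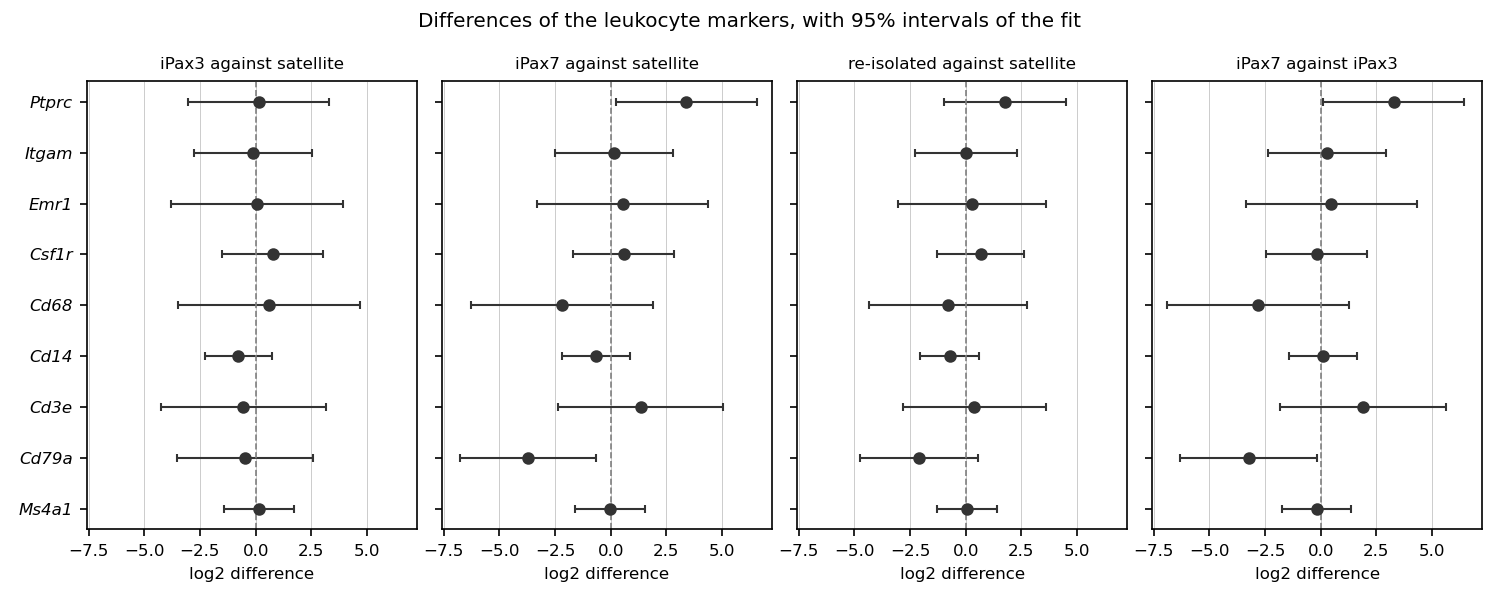
Difference of each leukocyte marker (log2, x axis) in the 4 comparisons, with points for the fitted difference and bars for the 95% interval. Intervals that leave out 0 are those of Ptprc and Cd79a in iPax7 against satellite cells and in iPax7 against iPax3, none of which passed after adjustment over 22705 genes.

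The slide bears on the comparison of the lines, since iPax7 replicate 1 shared a slide with the iPax3 arrays and the other iPax7 arrays were on another slide. With the slide as a fixed block among the 6 re-isolated arrays, a setting chosen after seeing the data, the Ptprc difference of iPax7 from iPax3 was 5.67 (adjusted p = 0.274) and that of Cd79a was -3.89 (adjusted p = 0.511). That of Cd3e rose from 1.90 to 6.03 (adjusted p = 0.159), and that of Cd68 turned from -2.81 to 1.55 (adjusted p = 0.656). Over all alternatives the adjusted p of this comparison ranged from 0.274 to 1 for Ptprc, 0.511 to 1 for Cd79a, 0.159 to 1 for Cd3e and 0.656 to 1 for Cd68. The block values set 1 iPax7 array against the 3 iPax3 arrays of the same slide, and none passed the test.

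No array was the highest for all markers. Of the 9 genes, 3 were highest on iPax7 replicate 1 (Ptprc, Cd68 and Cd3e), 2 on iPax3 replicate 2 (Csf1r and Cd79a), 2 on satellite replicate 3 (Cd14 and Ms4a1), 1 on iPax3 replicate 1 (Emr1) and 1 on iPax7 replicate 3 (Itgam). The genes most like each marker were found by the root mean square difference of centred levels over the 9 arrays among 19042 genes. Of the 27 genes named this way, 3 for each marker, 0 were in a leukocyte list, and 112 of the 19042 candidates (0.588%) were, so a count of 0 is near the background. For Ptprc they were Vps28, Prkg2 and Arhgef3 (0.48, 0.73 and 0.90, where the median over all candidates was 2.53). For Cd79a they were Ccr10, Slc44a3 and Pdxp (1.04, 1.12 and 1.16). For Itgam they were Krt6b, Ralgps2 and Jagn1 (0.28, 0.53 and 0.56), and for Cd14 Nfkbid, Olfr788 and Disc1 (0.22, 0.24 and 0.26). For Cd68 they were Iqsec3, Myo5a and Glmp (1.04, 1.1 and 1.19). The nearest gene of a leukocyte list was Lcp1, an actin-bundling protein of leukocytes, for Ptprc at rank 10. It was Cybb, a subunit of the phagocyte oxidase, for Cd14 at rank 9, and Itgb2, the chain that pairs with Itgam, for Itgam at rank 44. For the other markers the nearest list gene stood at rank 62 (Cd3e), 79 (Cd68), 92 (Ms4a1), 125 (Csf1r), 181 (Emr1) and 220 (Cd79a), and the median rank of the 9 was 79. These are descriptions over 9 arrays that share slides and groups. No background for the ranks was computed, so a rank near the top is not read as shared expression.

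Molecules that work with the markers were tested as a list of 12 partners, and of these Icam1 and Lbp were called higher in re-isolated cells. Icam1, the adhesion molecule that Itgam binds and that many cell types other than leukocytes also express, read 4.05, 3.50 and 3.84 in iPax3 and -1.56, 0.92 and 1.96 in iPax7 replicates 1 to 3. In satellite replicates 1 to 3 it read -2.20, -6.22 and -6.37, and only the first was above background by this probe, so the size of the fitted differences by this probe rests on readings below background. The iPax3 arrays were above all others, and the iPax7 arrays lay between them and the satellite arrays. The difference was 8.73 ± 1.28 in iPax3 (adjusted p = 0.0288), 7.05 ± 1.11 for both lines together (adjusted p = 0.0242) and 5.37 ± 1.28 in iPax7 (adjusted p = 0.137). By the Icam1 probe that was above background on all 9 arrays, the iPax3 difference was 0.54 (adjusted p = 0.703) and that of both lines 0.09 (adjusted p = 0.944). Over the settings other than leaving out an array, the iPax3 call held in 4 of 9 (adjusted p between 0.00665 and 0.703) and that of both lines in 4 of 9 (0.00834 to 0.944). The iPax3 call was also lost without any 1 of the iPax3 arrays, iPax7 replicate 2, satellite replicate 2 or satellite replicate 3 (adjusted p between 0.052 and 0.135). That of both lines was lost without any 1 array except iPax7 replicate 1 and satellite replicate 1 (adjusted p between 0.0508 and 0.109).

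Lbp, the lipopolysaccharide-binding protein that hands its ligand to Cd14, read 0.43, 1.03 and 1.93 in iPax3, -2.25, 0.68 and 1.67 in iPax7 and -6.19, -4.54 and -3.60 in satellite replicates 1 to 3. All 6 re-isolated arrays lay above the satellite arrays, of which 2 were above background. Such a separation, in either direction, held for 8.5% of all genes, and for Icam1 too. The difference was 5.36 ± 0.98 for both lines together (adjusted p = 0.0421), 5.91 ± 1.13 in iPax3 (adjusted p = 0.0715) and 4.81 ± 1.13 in iPax7 (adjusted p = 0.131). The call for both lines held in 4 of 8 other settings (adjusted p between 0.0324 and 0.215). It was lost without any 1 array except iPax7 replicate 1 (adjusted p between 0.0646 and 0.137). Of the 12 partners, 1, 0, 2 and 0 were called in the 4 comparisons, all higher in re-isolated cells. Among all genes 0.432%, 0.533%, 1.04% and 0% were called. The median difference of the list was 0.54, 0.07, -0.04 and -0.84.

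The other partners did not pass in any comparison. Of the receptors that act with Cd14, Tlr4 differed by 1.98 ± 1.16 and its co-receptor Ly96 by 1.93 ± 1.18 for both lines against satellite cells (adjusted p = 0.443 and 0.46). Of the ligands of Csf1r, Csf1 differed by -0.99 ± 2.36 and Il34 by -0.60 ± 1.11. Itgb2 differed by 0.21 ± 0.80. The other chains of the T cell receptor complex differed by -1.63 ± 1.99 (Cd3d), 0.77 ± 1.32 (Cd3g) and -0.29 ± 0.94 (Cd247), and the T cell kinase Lck by -0.69 ± 1.12. Cd79b, which pairs with Cd79a, differed by -0.41 ± 0.92 for both lines and by -0.59 ± 1.06 in iPax7 against satellite cells (adjusted p = 0.856), where Cd79a differed by -3.72.

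Longer lists of leukocyte genes gave the same count as the 9 markers. The 7 lists cover leukocytes in general, monocytes and macrophages, neutrophils, T and natural killer cells, B and plasma cells, dendritic cells with MHC class II, and mast cells with eosinophils. They hold 133 genes of the array, and the 9 markers are among these, so the lists are not a separate check. Of the 133 genes 118 were tested, and 0 were called in any of the 4 comparisons. The background in these comparisons was 0.432%, 0.533%, 1.04% and 0% of all genes called, so 0 of 118 is near it. At an unadjusted p under 0.05, 10, 19, 18 and 5 of the 118 passed (8.5%, 16.1%, 15.3% and 4.2%), where 12.4%, 12.4%, 15.4% and 4.1% of all genes did. The groups did not overlap for 20, 22, 9 and 8 of the 118, where 19%, 16.5%, 8.5% and 9.35% of all genes did not. The median difference was -0.32, -0.41, -0.43 and 0.10, where that of all genes was given above. The lowest adjusted p against satellite cells was that of Cd52, a surface glycoprotein of lymphocytes and other leukocytes. It read 1.37, 2.34 and 4.47 in iPax3 and 5.71, 2.35 and 0.19 in iPax7 replicates 1 to 3, above -3.78, -3.43 and -2.40 in satellite cells without overlap. The difference for both lines was 5.94 ± 1.19 (adjusted p = 0.0596).

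Among the general leukocyte genes, Laptm5, a lysosomal protein of blood cells, differed by 4.04 ± 1.95 and Was, an actin regulator, by 0.34 ± 0.60 for both lines against satellite cells (adjusted p = 0.363 and 0.819). Of the monocyte and macrophage genes tested, 0 of 27 were called in re-isolated cells, where 1.04% of all genes were. Of the 27, 21 (77.8%) were lower, where 54.4% of all genes were lower. The share lower was 77.8% in the mast cell and eosinophil list, 75% in the dendritic and 61.1% in the B and plasma cell list. It was 55.6% in the neutrophil, 44% in the T and natural killer and 31.6% in the general leukocyte list. Among the 9 markers 33.3% were lower. The median difference of the 27 was -0.64, that of all genes -0.16 and that of the 649 olfactory receptor genes tested -0.48. Spi1, the transcription factor PU.1 that directs myeloid development, was above background on 3 satellite arrays, 2 iPax7 arrays and 0 iPax3 arrays. Set against background, its mean was at least 7.47-fold lower in iPax3 than in satellite cells (limma adjusted p = 0.163). Clec7a, a receptor for fungal glucans, differed by -2.63 ± 1.62 and the scavenger receptor Marco by -0.36 ± 0.66. Of the neutrophil genes Mpo, Mmp8 and Elane, which encode granule enzymes, the differences were -0.68 ± 0.58, -2.26 ± 1.0 and 2.08 ± 0.84 (adjusted p = 0.601, 0.325 and 0.292).

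Genes of lymphocyte lineages did not pass either. The granule protease Gzmb of cytotoxic cells was above background on all 3 iPax7 arrays, at 4.86, 0.05 and 0.92, and on 1 array of each other group. Its difference in iPax7 from satellite cells did not pass (adjusted p = 0.174), and its size rests on satellite readings below background on 2 of the 3 arrays. Gzma, another such protease, was above background on 2 iPax7, 2 iPax3 and 0 satellite arrays. Set against background, its mean was at least 11.5-fold higher in iPax7 than in satellite cells (limma adjusted p = 0.33). On iPax7 replicate 1 it read -6.27, below background, so the fold does not hold for each array. The B cell genes Cd22 and Pax5 differed by -2.97 ± 0.75 and -2.40 ± 0.81 for both lines against satellite cells (adjusted p = 0.117 and 0.22), and for both genes the 6 re-isolated arrays lay below all satellite arrays. The MHC class II genes H2-Ab1 and H2-Eb1, used by antigen-presenting cells, differed by -2.17 ± 0.60 and -1.85 ± 0.97 (adjusted p = 0.152 and 0.398), the first without overlap. In this comparison 8.5% of all genes did not overlap. These B cell and MHC class II genes were named for the largest differences in their lists, so their lack of overlap is a description only. The T cell adaptor Lat differed by -1.04 ± 0.74. Of the mast cell and eosinophil genes, Tpsb2 differed by -0.02 ± 0.68, Mcpt4 by -2.17 ± 0.79 and Epx by -2.44 ± 0.95.

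Detection was high over the 7 leukocyte lists combined, and lower for the neutrophil list, of which 8 or 9 of 12 genes were above background on each array. Of the 133 leukocyte genes, 93 were above background by any probe on all 9 arrays, and the share per array lay between 80.5% and 88.7%, where 64.4% to 82.1% of all 27597 gene names were. As a description added after seeing the data, the 907 olfactory receptor genes of the array, whose products serve smell in the nasal epithelium, were above background in shares between 51.6% and 72.3% per array. These shares count a gene by any of its probes, so they rise with the number of probes per gene. The olfactory genes had 953 probes and the whole array 41174. Probes per gene were not matched, and no share of probes was computed for the 133 leukocyte genes. Of the leukocyte genes, 6 were above background on 0 of 9 arrays by any probe: C1qc and Mrc1 of macrophages, S100a8 of neutrophils, Clec9a and Siglech of dendritic cells, and Cpa3 of mast cells. The macrophage gene Cd163 was above background on 2 iPax3 arrays alone. The source of the signals above background was not tested.

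**Figure D4:**
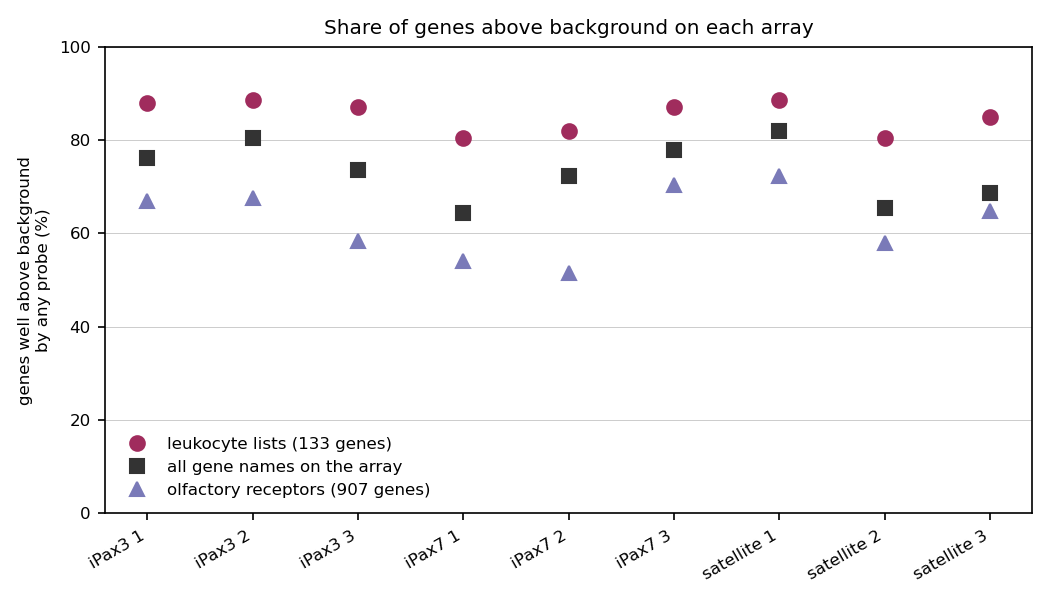
Share of genes above background by at least 1 probe (%, y axis) on each of the 9 arrays (x axis), for the 133 leukocyte-list genes (circles), all 27597 gene names (squares) and the 907 olfactory receptor genes (triangles). The leukocyte share was the highest of the 3 on each array, and the olfactory share lay between 51.6% and 72.3%. The number of probes per gene was not matched between the 3 sets.

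The summed signals of the fibroblast and of the myogenic list separated re-isolated from satellite arrays. Both lists were chosen with earlier results of these data known, so this is a description and not independent support. The signal summed over the 10 fibroblast genes, with the 75th percentile of each array set to 1, was 458 to 888 on the iPax3 arrays, 635 to 1150 on the iPax7 arrays and 33.2 to 87.6 on the satellite arrays, and 5, 5, 8 and 0 of the 10 genes were called in the 4 comparisons, all higher in re-isolated cells. The sum over 12 myogenic genes was 43.6 to 52.7, 38.1 to 81.5 and 140 to 270, with 1, 1, 2 and 0 of 11 tested genes called lower. For both lines together 10 of the 11 were lower and 1 was higher, by 4.57. Endothelial genes gave 0 calls among 10 tested in the 4 comparisons, and their sum was 6.03 to 7.15 in iPax3, 10.1 to 64.8 in iPax7 and 12.7 to 21.7 in satellite cells. Erythroid and platelet genes gave 0 calls among 7 tested, with sums of 5.82 to 31.4, 28.7 to 55.4 and 5.68 to 15.3. For both lists the 6 re-isolated arrays as one set overlapped the satellite arrays. By line, the endothelial sums of iPax3 lay below all satellite sums, and the erythroid and platelet sums of iPax7 lay above them. The endothelial sums of iPax7 and the erythroid and platelet sums of iPax3 overlapped those of satellite cells. Among all genes 0.432%, 0.533%, 1.04% and 0% were called in the 4 comparisons, so 0 calls in lists of this size is near the background. For the 20 general leukocyte genes the sum was 30.3 to 61.6 in iPax3, 32.5 to 152 in iPax7 and 18.4 to 50.1 in satellite cells, so these groups overlapped. For the monocyte and macrophage list it was 16 to 20.3, 14.1 to 17.6 and 16.3 to 53.2, and for the B and plasma cell list 8.33 to 17.5, 10 to 15.6 and 12.9 to 61.4. For the T and natural killer list it was 52.9 to 67.4, 36.9 to 230 and 23.4 to 100, with the highest value on iPax7 replicate 1. That array also gave the highest sum over the 9 markers, 18.1 against 2.2 to 5.85 on the other 8. Its sums were the highest of the 9 arrays for the fibroblast (1150), endothelial (64.8) and erythroid and platelet (55.4) lists too. It had the lowest share of gene names above background, 64.4%. The high sums of iPax7 replicate 1 were thus not limited to leukocyte genes. The part of these other cell types in the marker levels was not tested.

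**Figure D5:**
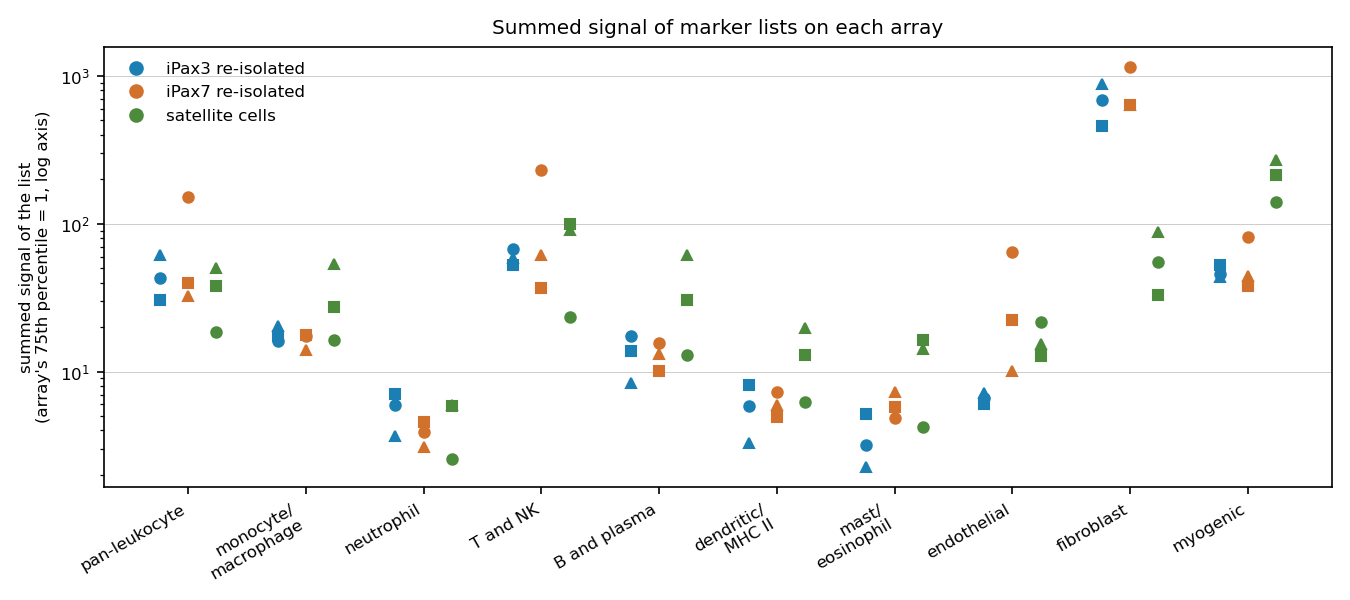
Signal summed over each marker list (y axis, log scale, the array's 75th percentile set to 1) for 10 lists (x axis), with 1 point per array coloured by group; circles, squares and triangles are replicates 1, 2 and 3. The fibroblast and myogenic sums separate re-isolated from satellite arrays, and those of the general leukocyte, macrophage, neutrophil, T cell and B cell lists overlap.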

How the data were processed

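RNA of sorted cells was measured on 9 one-colour arrays. Per the file headers, the authors' intensity values come from Agilent Feature Extraction (version 10.5.1.1) with detrending, background subtraction and a flag for spots over 13 SDs above background. The deposited value table holds log2 values of 31918 spots, 12 of the 18 marker probes among them. Per the submitters' processing notes it was made with limma. Each column followed its array's log2 mean signal (r between 0.9875 and 0.9993) with medians between 7.633 and 7.709, so it is an uncentred log2 scale whose adjustment between arrays is unknown, and it served as an alternative. Unused per-sample columns numbered 0.

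Processed intensities were taken as log2 minus the 75th percentile of each array. Outlier spots were left out, 0 to 2 of the 27 marker spots per array, 0 spots were saturated, and repeat spots were averaged. A probe was kept when above background on at least 3 of 9 arrays, which left 32967 of 41174 probes and 13 of the 18 marker probes, and the probe with the highest mean stood for its gene, giving 22705 genes. Groups came from the sample titles. A fit with a mean per group over all 9 arrays was made with limma 3.58.1 in R 4.3.3 (6 residual and 3.2 prior degrees of freedom), with Benjamini-Hochberg adjustment over all genes or probes. It was tested on simulated data. Where all arrays of a group were below background, a fold was set against the lowest signal above background on each array. This fold compares group means and carries no sampling error.

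The members and lists were chosen with earlier results of these data known. Named genes are the 9 markers, all 12 partners, in each other list the genes called, the highest by mean and the 2 with the largest difference between re-isolated and satellite cells, and the 3 genes most like each marker. One gene that this rule names is not reported here. The alternatives were the filter on dim probes, normexp with an offset of 50, quantile normalization, the deposited table, the mean of a gene's probes, a replicate block, slide and scan day as blocks, and each array left out.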

Additional observations from a re-analysis of the deposited data

How the results depend on the processing

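The count of called markers was 0 of those tested in all 4 comparisons under every alternative run and with each array left out, and the same was so for single markers: none of their differences passed under any of them. Signs were less stable, and a marker's difference changed sign in 29 of 160 runs for iPax3 against satellite cells, 13 of 160 for iPax7 against satellite cells, 22 of 160 for both lines together and 17 of 169 for iPax7 against iPax3. Some of these runs could not move the sign, such as those without an array of a group outside the comparison. The counts therefore overstate how stable the signs were. Over all runs the sign held for Cd14 in iPax3 against satellite cells, and for Ptprc and Cd79a in iPax7 against iPax3. In iPax7 against satellite cells it held for Ptprc, Csf1r, Cd68, Cd14 and Cd79a. For both lines together it held for Ptprc, Cd68, Cd14 and Cd79a. Counts over all genes moved more, in the order iPax3, iPax7 and both lines against satellite cells from 98, 121 and 236. With slide as a random block (correlation 0.431) they were 14, 43 and 46, and with scan day as one (0.196) 27, 36 and 43. The deposited table gave 186 in iPax3 and 196 in iPax7, and probes above background on all 9 arrays 76 in iPax7. With the replicate block they were 37, 55 and 115. Replicate numbers did not pair the arrays: same-numbered deviations correlated at -0.129 to 0.063 over 9 pairs, and 2 of 9 arrays correlated best with their own number. In iPax7 against iPax3, where 0 genes were called, 1 was called with slide as a random block, under quantile normalization and for gene means over probes. With 1 array left out the counts ranged from 19 to 451, 35 to 490, 75 to 692 and 0 to 0; the highest values came without satellite replicate 1, the lowest without iPax3 replicate 3, iPax7 replicate 1 and satellite replicate 2, and the cause was not tested. Normexp moved the median of all genes in iPax3 against satellite cells from -0.19 to -0.31 and that of the 9 markers from 0.06 to -0.24. Background limits 5 marker probes, which were above it on fewer than 3 arrays and have no test.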
